A study of Homo sapiens with 9 samples.

Results

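The genes described here are the cyclins, cyclin-dependent kinases and inhibitors that govern the G1 phase of the cell cycle: the D cyclins CCND1, CCND2 and CCND3, the E cyclins CCNE1 and CCNE2, the kinases CDK2, CDK4 and CDK6, and the inhibitors CDKN1A and CDKN1B. They were taken by gene symbol from the annotation of the array, with 1 probe set per gene. Of the 10 genes, 9 had a probe set annotated to them alone and were analysed, among 14232 such genes in all. CDK4 had no such probe set and no value is given for it. The cells were PANC-1, a human line of pancreatic carcinoma origin with epithelial growth, and RNA was taken 72 h after treatment. The 9 arrays fell into 3 groups of 3 samples that the labels call biological replicates: cells that received Lipofectamine RNAiMAX, a lipid transfection reagent, with no RNA (labelled non-transfected), cells given 20 nM of a negative control mirVana mimic, and cells given 20 nM of a miR-520f mirVana mimic. A mimic is a synthetic RNA duplex that is loaded in the cell like the microRNA it copies. All 3 groups thus saw the lipid, all were 1 cell line, and the labels do not say how the cultures of a group were separated, so p-values measure only the spread between these samples. RNA was taken from whole cultures, so a shift in the share of cells in G1 cannot be told apart from a change within each cell.

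In G1, growth signals raise D cyclins, which bind CDK4 or CDK6 and phosphorylate the retinoblastoma protein. This releases E2F factors, which switch on E cyclins and the enzymes of DNA synthesis, and cyclin E with CDK2 then completes the step into S phase. The inhibitors p21 (CDKN1A) and p27 (CDKN1B) block cyclin E-CDK2 and also bind cyclin D-CDK4/6 complexes, while INK4 proteins such as p16 (CDKN2A) block CDK4 and CDK6 alone. In pancreatic carcinoma this control is commonly broken, and PANC-1 is known to have lost CDKN2A.

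A microRNA finds its targets mainly by pairing of its seed, bases 2 to 8. The sequences are shown because the relatives of miR-520f best known for acting on G1 genes carry a similar run of letters 1 base further in. Mature sequences are from RefSeq (GRCh38.p14), 5′ to 3′, with bases 2 to 8 in capitals; the labels do not say which arm the mimic copies. The MIR520F gene lies on chromosome 19, and its 3p arm at chr19:53682213-53682234, on the plus strand.
hsa-miR-520f-3p: aAGUGCUUccuuuuagaggguu
hsa-miR-520f-5p: cCUCUAAAgggaagcgcuuucu
hsa-miR-520c-3p: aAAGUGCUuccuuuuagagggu
hsa-miR-302a-3p: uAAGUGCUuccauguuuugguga
hsa-miR-372-3p: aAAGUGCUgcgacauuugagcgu
Of 2370 mature human microRNAs in the table, miR-520f-3p alone (1) had AGUGCUU at bases 2 to 8. In 11 others, miR-520c-3p and miR-302a-3p among them, the same 7 letters stood 1 base further in, at bases 3 to 9. The printed miR-372-3p was not among the 11, though its bases 2 to 8 are those of miR-520c-3p and miR-302a-3p. As background, CDKN1A is a published target of microRNAs of the miR-302 and miR-372 families, and CCND1 is a published target of miR-302. Pairing with the messages themselves was not examined here.

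The values were RMA log2 intensities, in which a difference of 1 is a 2-fold change, and a gene was called where limma's Benjamini-Hochberg adjusted p over all 14232 genes was under 0.05. Array medians ranged from 4.22 to 4.34, and with 3 arrays a group the precision is limited by their number. Keratin KRT8 (11.27 to 11.77) and EPCAM (7.56 to 9.56) were high on all arrays, whereas the ductal keratin KRT7 (3.43 to 3.56), the leukocyte gene PTPRC (2.88 to 3.14) and the endothelial gene PECAM1 (3.08 to 3.30) were below the array medians. The fibroblast list was split, with COL1A1 at 7.06 to 8.23 and DCN at 3.05 to 3.21. Negative control replicate 1 deviated the most from its group mean over all genes, by 0.169 (root mean square, log2) beside 0.0698 to 0.131 for the other 8 arrays. Where its omission changes the call of a member, the result is given with and without it. Changes in size alone are not all given.

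With miR-520f, CCND1, CCND2 and CDKN1A were lower and both E cyclins and CDK6 were higher than in either control. Against both controls limma called 6 of the 9 genes (18.0% of all genes were called). CCNE1, CCNE2 and CDK6 rose (3 of 9, 9.37% of all genes), and CCND1, CCND2 and CDKN1A fell (3 of 9, 8.61% of all genes). Without negative control replicate 1 the count was 7, CDKN1B being added as lower. Against non-transfected cells 7 were called (27.6% of all genes), 4 higher (14.5%) and 3 lower (13.1%), and against the negative control 6 were called (28.1%), 3 higher (15.4%) and 3 lower (12.6%). In 7 of the 9 genes no miR-520f array fell within the range of the 6 control arrays or beyond its other end, which held for 25.4% of all genes. The median size of the change on the log2 scale was 0.89 for non-transfected cells as the control and 0.84 for the negative control, beside 0.12 and 0.14 over all genes. These comparisons share the miR-520f arrays, so they are not independent of each other. The genes were chosen with earlier results of these data known, so their shares are not an independent test.

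**Figure D1:**
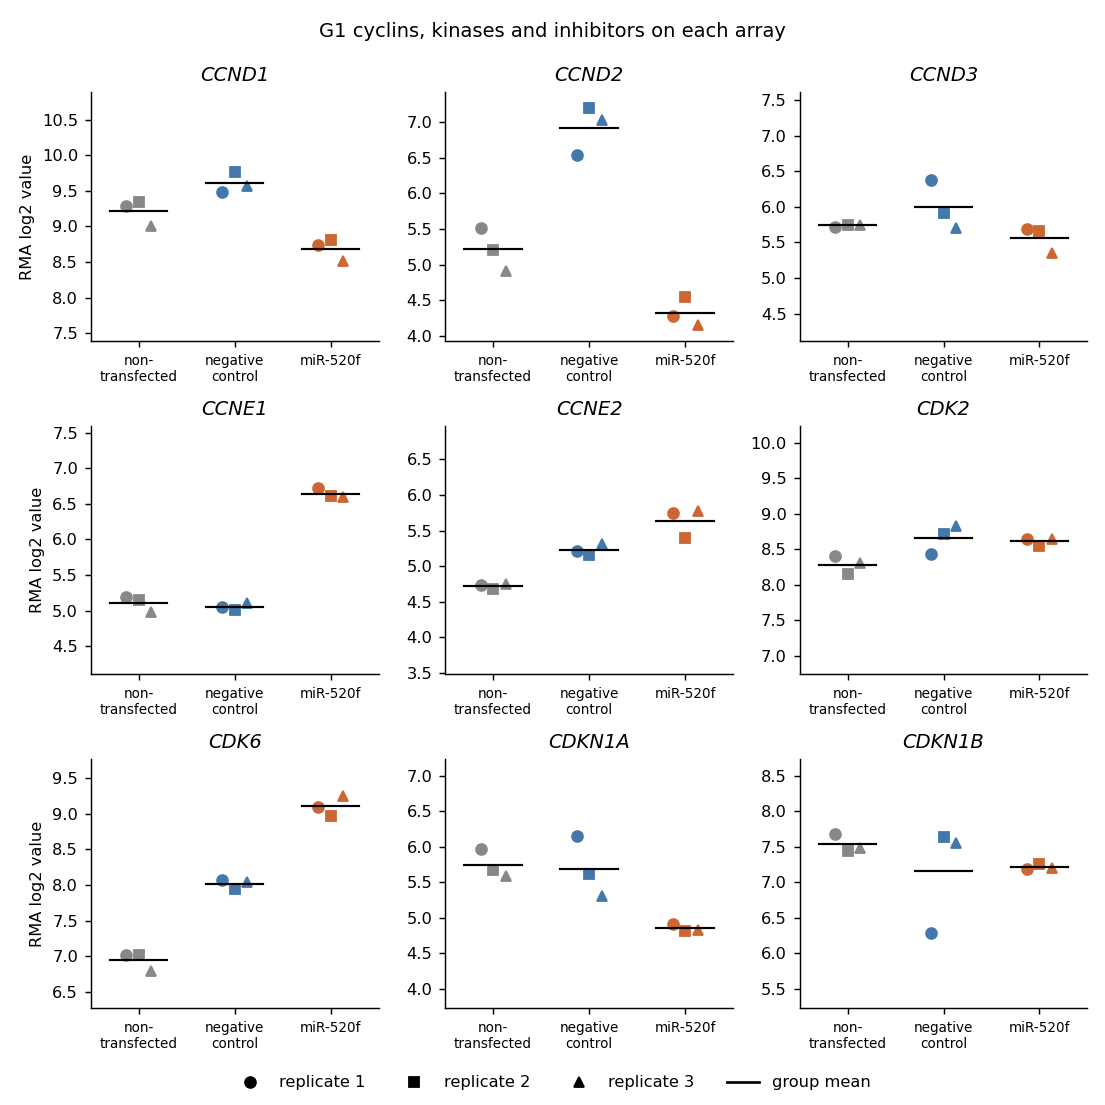
RMA log2 values (vertical axis, the same span in every panel) of the 9 genes on each array, by group (horizontal axis); symbols mark the replicate number and bars the group means. CCNE1, CCNE2 and CDK6 stand above both controls and CCND1, CCND2 and CDKN1A below them with miR-520f. The negative control stands apart from non-transfected cells for CCND1, CCND2, CCNE2, CDK2 and CDK6, most widely for CCND2 and CDK6.

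Among the D cyclins, the partners of CDK4 and CDK6 that link growth signals to the cycle, CCND2 changed the most. CCND2 (probe set 3401704) measured 5.52, 5.21 and 4.91 in replicates 1 to 3 of non-transfected cells, 6.54, 7.20 and 7.03 in the negative control and 4.28, 4.54 and 4.15 with miR-520f. The 3 groups did not overlap, with the negative control highest and miR-520f lowest. Its log2 fold change with miR-520f was -0.89 against non-transfected cells (SE 0.19, limma adjusted p = 0.00389) and -2.60 against the negative control (SE 0.19, limma adjusted p = 2.38e-06), a 1.85-fold and a 6.07-fold lower level. By the size of its change CCND2 ranked 6 of 14232 genes against the negative control and 662 against non-transfected cells. With miR-520f its values lay near the medians of those arrays (4.27, 4.29 and 4.22), and RMA compresses differences of dim probe sets. The controls themselves differed, CCND2 being higher with the negative control by 1.71 (SE 0.19, limma adjusted p = 0.000182), rank 9 of all genes.

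CCND1 (probe set 3338192) followed the same order in a narrower range. It measured 9.29, 9.34 and 9.01 in non-transfected cells, 9.49, 9.77 and 9.57 in the negative control and 8.74, 8.81 and 8.51 with miR-520f, again with no overlap between groups. It was 1.44-fold lower than in non-transfected cells (log2 fold change -0.53, SE 0.11, limma adjusted p = 0.00474) and 1.90-fold lower than in the negative control (log2 fold change -0.92, SE 0.11, limma adjusted p = 0.000106). Both calls held under all 18 alternative settings that were run.

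CCND3 (probe set 2953866) was not called. It measured 5.72, 5.75 and 5.75 in non-transfected cells, 6.38, 5.91 and 5.70 in the negative control and 5.69, 5.66 and 5.35 with miR-520f. All miR-520f arrays lay below all control arrays, though the nearest control array, at 5.70, was almost level with the highest of them, at 5.69. The difference against the negative control was -0.43 (95% interval -0.76 to -0.10, limma adjusted p = 0.0522), and against non-transfected cells it was -0.18 (95% interval -0.51 to 0.15, limma adjusted p = 0.506). The former passed in 4 of 18 alternatives, with an adjusted p from 0.00988 to 0.196 over all of them. It was -0.58 and called without negative control replicate 3, and -0.24 and not called without negative control replicate 1.

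The E cyclins, which activate CDK2 at the entry into S phase, both rose. CCNE1 (probe set 3828112) measured 5.19, 5.15 and 4.98 in non-transfected cells, 5.05, 5.01 and 5.10 in the negative control and 6.72, 6.61 and 6.59 with miR-520f. The control groups overlapped and every miR-520f array stood more than 1 log2 unit above them. It was 2.89-fold higher than in non-transfected cells (log2 fold change 1.53, SE 0.08, limma adjusted p = 3.29e-07) and rose by 1.59 against the negative control (SE 0.08, limma adjusted p = 2.28e-07). The negative control differed from non-transfected cells by -0.05 (95% interval -0.23 to 0.12, limma adjusted p = 0.798).

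CCNE2 (probe set 3145107) rose in steps. It measured 4.74, 4.68 and 4.75 in non-transfected cells, 5.21, 5.16 and 5.31 in the negative control and 5.75, 5.40 and 5.77 with miR-520f, with no overlap between the groups. With miR-520f it was 1.89-fold above non-transfected cells (log2 fold change 0.92, SE 0.10, limma adjusted p = 4.72e-05) and 1.33-fold above the negative control (log2 fold change 0.41, SE 0.10, limma adjusted p = 0.00875). The negative control already stood 0.50 above non-transfected cells (SE 0.10, limma adjusted p = 0.00591).

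Of the kinases, CDK6 rose and CDK2 did not pass against both controls. CDK6 (probe set 3061319), which with CDK4 forms the D cyclin kinases, measured 7.02, 7.02 and 6.79 in non-transfected cells, 8.07, 7.94 and 8.04 in the negative control and 9.10, 8.97 and 9.25 with miR-520f. The groups formed 3 separate levels about 1 log2 unit apart. CDK6 was 4.48-fold higher with miR-520f than in non-transfected cells (log2 fold change 2.16, SE 0.09, limma adjusted p = 1.33e-07), rank 22 of 14232 genes by size, and 2.13-fold higher than in the negative control (log2 fold change 1.09, SE 0.09, limma adjusted p = 8.62e-06). The negative control was itself 2.11-fold above non-transfected cells (log2 fold change 1.07, SE 0.09, limma adjusted p = 5.04e-05).

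CDK2 (probe set 3417146), the partner of the E cyclins, changed little. It measured 8.40, 8.15 and 8.31 in non-transfected cells, 8.44, 8.71 and 8.83 in the negative control and 8.64, 8.55 and 8.65 with miR-520f. The miR-520f arrays overlapped those of the negative control and lay above those of non-transfected cells. Its difference from non-transfected cells was 0.33 (SE 0.10, limma adjusted p = 0.0380), a call that was lost in 8 of 18 alternatives (adjusted p 0.00898 to 0.160). Leaving out any 1 miR-520f array, negative control replicate 2, or non-transfected replicate 2 (0.26) or 3 (0.34) was enough to lose it. Against the negative control it was -0.05 (95% interval -0.28 to 0.18, limma adjusted p = 0.780).

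Of the inhibitors, CDKN1A fell. CDKN1A (p21, probe set 2905169) measured 5.97, 5.67 and 5.59 in non-transfected cells, 6.15, 5.61 and 5.31 in the negative control and 4.91, 4.81 and 4.83 with miR-520f. The control groups overlapped and spread widely, and all miR-520f arrays lay below them. It was 1.85-fold lower than in non-transfected cells (log2 fold change -0.89, SE 0.18, limma adjusted p = 0.00283) and 1.78-fold lower than in the negative control (log2 fold change -0.83, SE 0.18, limma adjusted p = 0.00397). Both calls held in all 18 alternatives, and the controls differed by -0.05 (95% interval -0.44 to 0.33, limma adjusted p = 0.926).

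CDKN1B (p27, probe set 3405440) turned on 1 array. It measured 7.68, 7.44 and 7.48 in non-transfected cells, 6.28, 7.64 and 7.55 in the negative control and 7.19, 7.25 and 7.20 with miR-520f. Negative control replicate 1 lay below every other array, and the other 5 control arrays lay above all miR-520f arrays. With all arrays CDKN1B was not called, with differences of -0.32 (95% interval -0.93 to 0.29, limma adjusted p = 0.520) and 0.06 (95% interval -0.56 to 0.67, limma adjusted p = 0.914). Without negative control replicate 1 the differences were -0.32 (limma adjusted p = 0.00867) and -0.38 (limma adjusted p = 0.00697), both called as lower.

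**Figure D2:**
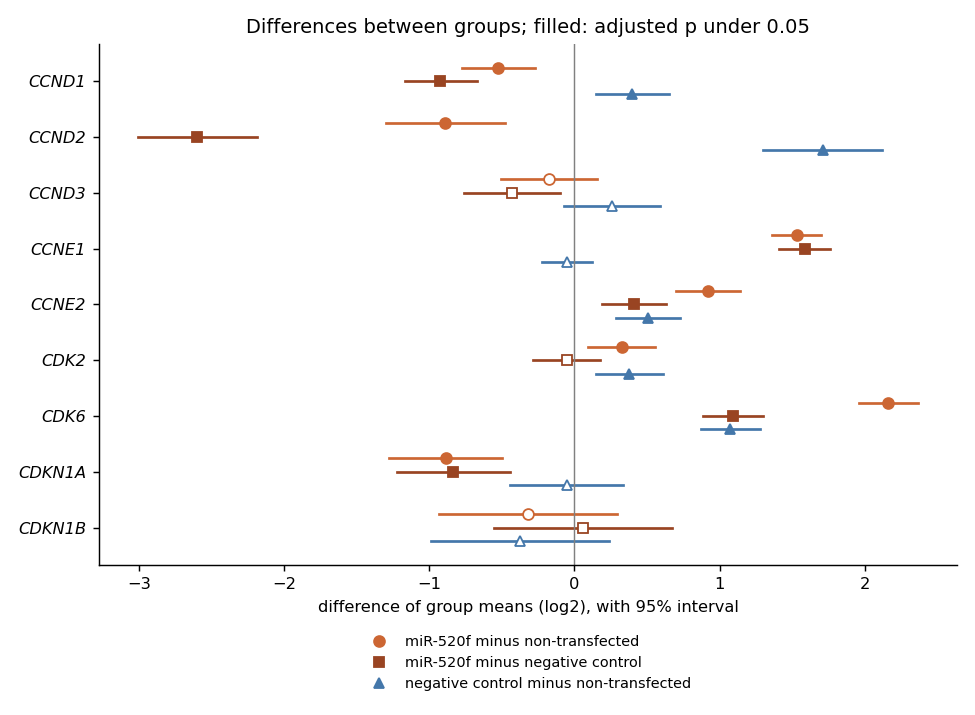
Differences of group means on the log2 scale (horizontal axis) for each gene (vertical axis), with 95% intervals from the limma fit; filled symbols passed an adjusted p of 0.05 over all genes. CDK6 and CCND2 differ between the controls (1.07 and 1.71) as well as with miR-520f, whereas the CCNE1 and CDKN1A differences between the controls are near 0. Differences between the controls also passed for CCND1, CCNE2 and CDK2.

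Close relatives were compared by their change rather than their level, through the difference between their log2 values on each array, set between the 3 miR-520f and the 6 control arrays with a two-sided exact permutation test. The smallest p it can give is 0.0238. Of 6 planned pairs, 5 could be computed, CDK6 with CDK4 being the exception. CCNE1 gained 0.89 on CCNE2 (exact permutation p = 0.0238, adjusted over the 5 pairs 0.0298). The excess of CCNE1 was 0.81 to 1.21 on the miR-520f arrays, 0.23 to 0.47 in non-transfected cells and -0.21 to -0.16 in the negative control, with no overlap.

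CCND2 lost 1.02 relative to CCND1 and changed by -1.44 relative to CCND3 (exact permutation p = 0.0238 and adjusted p = 0.0298 for each). Both are set against the pooled controls, which differed from each other. CCND1 minus CCND2 was 4.27 to 4.46 on the miR-520f arrays, 3.76 to 4.13 in non-transfected cells and 2.54 to 2.95 in the negative control. CCND2 minus CCND3 was -1.40 to -1.12, -0.84 to -0.19 and 0.17 to 1.33 in the same order. In both pairs the groups did not overlap, and non-transfected cells lay nearer to miR-520f than the negative control did. CCND1 minus CCND3 changed by -0.42 (exact permutation p = 0.0714, adjusted p = 0.0714), which did not pass; without negative control replicate 1 it was -0.50 (exact permutation p = 0.0357). CDKN1A minus CDKN1B changed by -0.73 (exact permutation p = 0.0238, adjusted p = 0.0298), and by -0.43 without negative control replicate 1 (exact permutation p = 0.0357). The negative control arrays ranged from -2.24 to -0.13 in that pair, beside -2.44 to -2.28 with miR-520f.

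**Figure D3:**
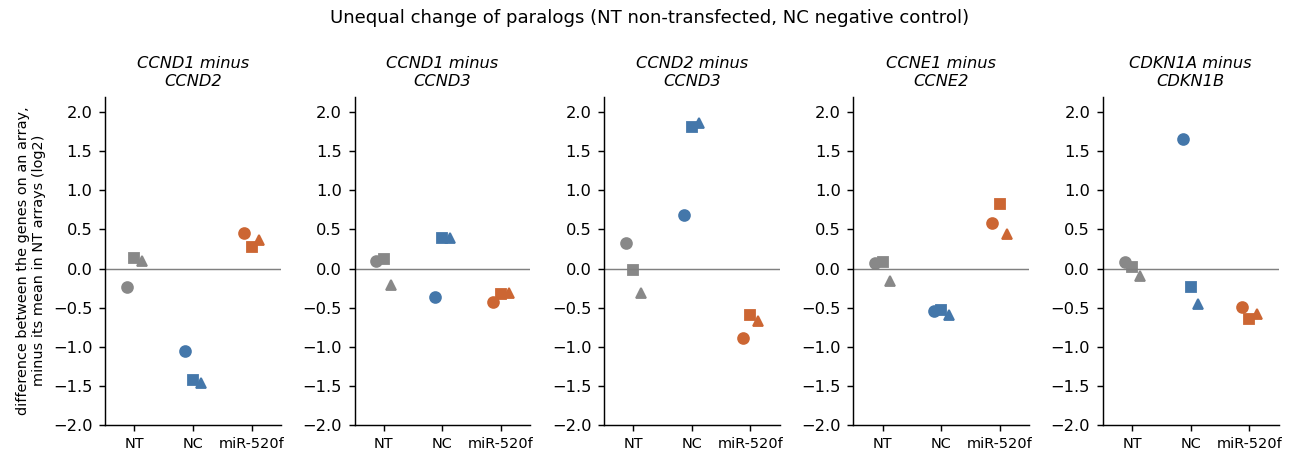
Difference in log2 value between paired genes on each array, shifted so that the mean of the non-transfected arrays is 0 (vertical axis), by group (horizontal axis). The negative control lies on the opposite side of 0 from miR-520f for CCND1 minus CCND2, CCND2 minus CCND3 and CCNE1 minus CCNE2.

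The negative control was set against non-transfected cells to show how these genes differ between the controls. Of the 9 genes, 5 were higher in the negative control than in non-transfected cells, namely CCND1, CCND2, CCNE2, CDK2 and CDK6 (7.00% of all genes were higher, 8.28% lower and 15.3% were called). By limma 0 of the 9 were lower, and the number lower at an unadjusted p under 0.05 was also 0. The changes of CCND2, CCNE2 and CDK6 held in all 18 alternatives. Those of CCND1 (0.40, limma adjusted p = 0.0357) and CDK2 (0.38, limma adjusted p = 0.0317) were lost in 9 and 8 of them. Without negative control replicate 2 they were 0.32 and 0.35, without negative control replicate 3 they were 0.42 and 0.29, and without non-transfected replicate 3 they were 0.30 and 0.39, none of which was called. Leaving out miR-520f replicate 1 ended both calls, leaving out non-transfected replicate 1 (0.44) that of CCND1, and leaving out non-transfected replicate 2 (0.31) that of CDK2. For CDK6, CCNE2 and CDK2 the control mimic and miR-520f differed from non-transfected cells in the same direction. For CCND1 and CCND2 they did so in opposite directions.

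The genes whose 9 array values, centred on their own mean, lay closest to each called gene were found by the root mean square difference. For CCND1 these were DPP9 (0.0865), PROSER3 (0.0907) and C11orf68 (0.105). For CCND2 the distances were larger, with MICB at 0.362, TGFBR2, the type II TGF-beta receptor, at 0.371 and TENT5C at 0.388, and each of these was also higher in the negative control than in non-transfected cells (1.52, 1.08 and 1.14). CCNE1 was closest to FLVCR2 (0.0796), DNMT3B, a DNA methyltransferase (0.112), and NTS (0.144). CCNE2 was closest to PHTF2 (0.0818), the kinetochore gene NUF2 (0.0972) and MCM8 (0.0976). The 3 nearest genes of CDK6 were zinc finger genes, ZNF273 (0.187), ZNF680 (0.190) and ZNF43 (0.198). Those of CDKN1A were ZFAND2B (0.118), the mitochondrial fusion gene MFN2 (0.126) and SLC75A1 (0.127).

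The upstream sequences of CCNE1 and CDK6 are shown because both genes rose against both controls. They are the 250 bases before the annotated start in RefSeq (GRCh38.p14), on the strand of the gene, with the GC box GGGCGG of Sp1 factors, searched on both strands, in capitals. CCNE1 lies at chr19:29811741-29811990 (plus strand) and the upstream of the 2 CDK6 windows at chr7:92836574-92836823 (minus strand).
CCNE1: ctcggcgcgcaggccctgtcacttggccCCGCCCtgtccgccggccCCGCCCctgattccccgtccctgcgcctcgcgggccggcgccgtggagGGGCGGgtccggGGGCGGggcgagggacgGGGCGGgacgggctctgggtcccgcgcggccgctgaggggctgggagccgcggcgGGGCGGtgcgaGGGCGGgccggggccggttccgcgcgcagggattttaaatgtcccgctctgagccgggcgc
CDK6: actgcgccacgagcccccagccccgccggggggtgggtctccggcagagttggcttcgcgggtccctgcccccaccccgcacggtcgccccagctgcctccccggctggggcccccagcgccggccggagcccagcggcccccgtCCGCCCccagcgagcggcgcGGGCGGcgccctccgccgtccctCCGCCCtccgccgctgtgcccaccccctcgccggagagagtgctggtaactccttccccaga
CCNE1 held 7 GC boxes and CDK6 held 3, where 42.6% of 34788 distinct upstream windows held at least 1, 13.9% at least 3 and 1.11% at least 7. The other CDK6 window held 0. CDKN1A, which fell, held 4, and among genes not called against both controls the 3 windows of CCND3 held 5, 2 and 0 and CDKN1B held 1. Windows with and without GC boxes were thus found among genes that rose and genes that were not called. The E2F words TTTCCCGC, TTTCGCGC, TTTGCCGC and TTTGGCGC, on either strand, were in neither of the printed windows, and 2.78% of all windows held one. Neither window held the E box CACGTG, which 6.31% of all windows held. A match of letters is not a binding site, and these windows leave out more distant sequence. No window was available for CCND1, CCND2, CCNE2 and CDK2, so these genes were not searched.

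The other genes of the pathway were taken from 6 lists of 123 genes, 99 of which had a probe set of their own. The lists were chosen with earlier results of these data known, so their shares are not an independent test. Of the 99, 26 rose and 6 fell against both controls, where 9.37% of all genes rose and 8.61% fell, so the share that fell was below that of all genes. In these genes the median difference was 0.33 with non-transfected cells as the control and 0.10 with the negative control, beside -0.03 and -0.03 over all genes. In what follows, the first of a pair of values is the log2 fold change with miR-520f against non-transfected cells and the second that against the negative control.

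Against both controls 9.37% of all genes rose. Among 15 pocket proteins, E2F and DP factors and their partners, 8 rose against both controls and 7 did not pass in both. The repressive E2F factors E2F5 (1.5 and 1.33), E2F6 (0.66 and 0.41) and E2F7 (1.56 and 0.36) were among them, with E2F3 (0.63 and 0.38). So were MYBL2 (1.02 and 0.74), FOXM1 (0.56 and 0.46), LIN9 (1.07 and 0.34) and LIN54 (0.57 and 0.29), which serve the MuvB complexes and the mitotic program. The repressive factors E2F4 (0.32 and 0.44) and E2F8 (-0.08 and -0.19) were among those that did not pass in both. The rest of the 7 were E2F1 (0.14 and -0.01), E2F2 (-0.24 and -0.03), TFDP2 (0.35 and 0.11) and the pocket protein genes RB1 (0.1 and -0.155) and RBL1 (0.22 and -0.25). The count of 8 dropped to 4 without miR-520f replicate 1, without miR-520f replicate 3 or without negative control replicate 3, and to 3 in an unmoderated fit.

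In the list of degradation factors for G1 cyclins and inhibitors, 8 of 21 genes rose and 1 fell against both controls. Over all genes 9.37% rose and 8.61% fell, so the share that fell was below that of all genes. BTRC (1.24 and 0.95) and FBXW7 (0.95 and 0.64), substrate receptors of SCF ubiquitin ligases of which FBXW7 recognizes cyclin E, rose, as did the ubiquitin-conjugating enzymes CDC34 (0.99 and 1.05) and UBE2R2 (0.60 and 1.13). AMBRA1 (0.50 and 0.80) and FBXO31 (0.35 and 0.51), ligase receptors for D cyclins, rose too. The deubiquitinases USP2 (1.24 and 0.88), which acts on cyclin D1, and USP28 (0.96 and 0.51), which opposes FBXW7, rose in parallel. RNF123, a ligase subunit for p27, fell (-0.35 and -0.59).

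Of 13 genes for partner cyclins, kinase activation and kinase binding, 3 rose and 0 fell against both controls. Over all genes 9.37% rose and 8.61% fell. Those of the list that rose were CCNC, the cyclin of the Mediator kinase (1.01 and 1.37), the cyclin kinase subunit CKS2 (0.84 and 0.61) and CCNG2 (0.50 and 0.77). Of 5 INK4 and other inhibitors 0 passed against both controls by limma, and 0 did at an unadjusted p under 0.05 in both or in an unmoderated fit. The 2 with the largest smaller change were CDKN3 (0.55 and 0.16) and CDKN2B (-0.10 and -0.06). CDKN2A, named here apart from the rule as the gene lost in this line, had group means of 3.18, 3.19 and 3.18, below the array medians.

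Among 25 regulators upstream of the G1 cyclins and inhibitors, 2 were called higher and 4 lower with miR-520f in both comparisons. The share that rose was no higher than the 9.37% of all genes, and 8.61% of all genes fell. HMGA2, a chromatin protein of embryonic and tumour cells, rose (1.30 and 1.36), and MDM2, the ligase that restrains p53, rose (0.97 and 0.60). MXD1 (-1.37 and -1.60) and MXI1 (-0.47 and -0.47), which oppose MYC at shared sites, fell, as did the kinases MAPK3 (-1.01 and -0.42) and AKT1 (-0.69 and -0.36).

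Of 21 S phase genes under E2F control, 17 rose and 1 fell against non-transfected cells, 5 rose and 3 fell against the negative control, and 16 were higher in the negative control than in non-transfected cells. Over all genes, 14.5% rose and 13.1% fell against non-transfected cells, 15.4% rose and 12.6% fell against the negative control, and 7.00% were higher in the negative control than in non-transfected cells. The share of S phase genes that fell against the negative control was thus near that of all genes. Their median differences in these comparisons were 0.67, 0.19 and 0.56. Against both controls 5 rose, the primase subunit PRIM1 (1.47 and 0.83), the licensing factor CDC6 (1.26 and 0.46), the helicase components GINS1 (1.05 and 0.42) and GINS2 (1.21 and 0.65) and the thymidine kinase TK1 (0.87 and 1.06). UHRF1, which maintains DNA methylation, fell (-1.47 and -1.60). An unmoderated fit called 3 of the 21 against both controls in place of 6, 5 against the negative control in place of 8, and 7 between the controls in place of 16.

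**Figure D4:**
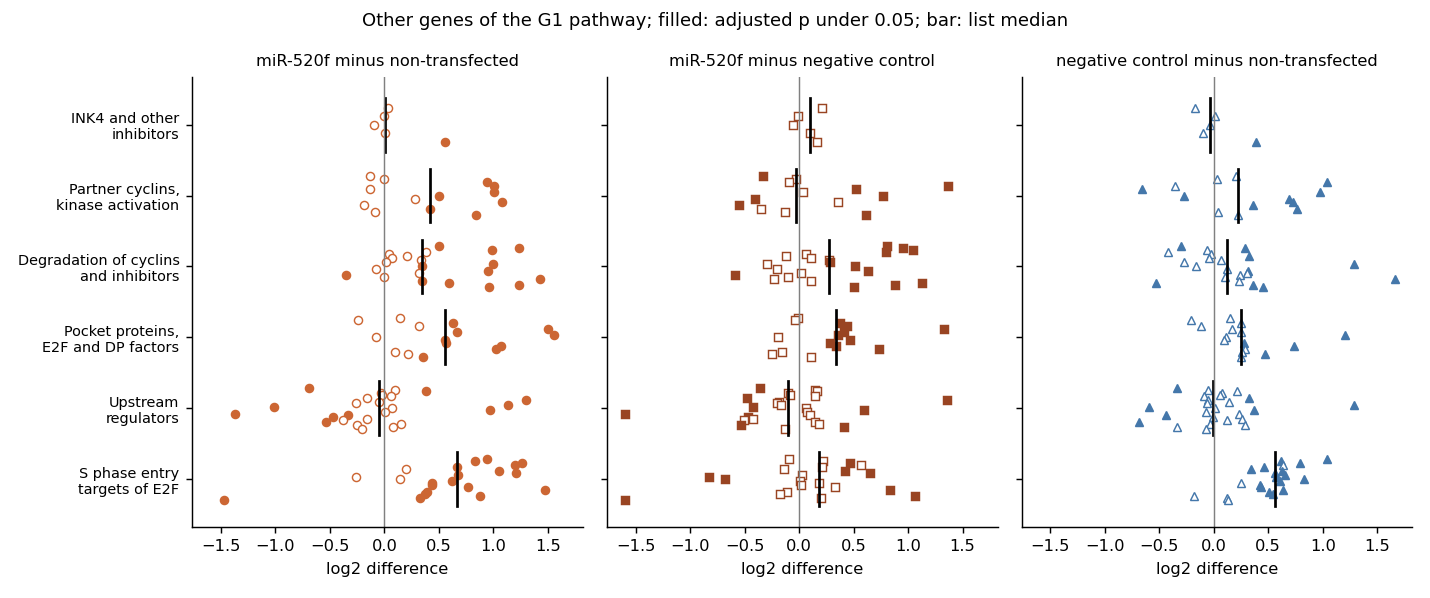
Log2 differences (horizontal axis) of the measured genes of each list (vertical axis) in the 3 comparisons; filled symbols passed an adjusted p of 0.05 and bars mark list medians. S phase genes lie to the right in both comparisons with non-transfected cells (medians 0.67 and 0.56) and around 0.19 against the negative control.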

How the data were processed

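Expression was measured on 9 arrays. The values deposited by the authors were on the log2 scale, for 22011 probe sets; Partek 6.6, RMA and build hg18 are named, without settings, per the submitters' processing notes. RMA corrects background, normalizes between arrays and compresses differences of dim probe sets. The array annotation gave 1 gene symbol to 14432 probe sets, several to 2408 and none to 5171; the brightest probe set was kept per gene (14232 genes, 14205 matched by Entrez identifier to GRCh38.p14, with 0 symbols changed). Each of the 9 genes had 1 such probe set. The 9 arrays entered a single limma fit (limma 3.58.1, R 4.3.3) of group means with eBayes and 6 residual degrees of freedom, which was tested on simulated data. The series' design text names pairwise comparisons in Partek, for which an unmoderated fit was an alternative. Promoter and microRNA sequences were matched by symbol or name.

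Members and lists were chosen with earlier results of these data known. Named were all members, in each list the genes that passed against each of the controls (or the 2 with the largest smaller change), and the 3 genes nearest each member called against both. Alternatives covered array scaling, dim genes, probe sets, features tested, moderation, groups in the fit, a replicate block, a fold threshold and leaving out each array.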

Additional observations from a re-analysis of the deposited data

How the results depend on the processing

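Of 486 recomputed member changes, 450 kept direction and side of the threshold, 25 lost and 6 gained a call with the same sign, and 5 changed sign, 1 of which also gained a call. The calls of CCND1, CCND2, CCNE1, CCNE2, CDK6 and CDKN1A against each control held in all 18 alternatives. Requiring a fold change of at least 2 left 2 genes against non-transfected cells, 3 against the negative control, 2 against both and 2 between the controls. Between the controls 3 of 5 were called with all probe sets tested, in an unmoderated fit or with only those groups fitted, and 3 to 5 leaving out 1 array. Leaving out single arrays turned the sign of some differences that were not called with all arrays: CDK2 against the negative control (-0.162 to 0.0329), CDKN1A between the controls (-0.282 to 0.135), and, without negative control replicate 1, CDKN1B against the negative control (-0.381 to 0.298, called as lower at -0.381) and between the controls (-0.616 to 0.0633). Over all genes, 2174 were called between the controls, 1287 in an unmoderated fit and 1394 without non-transfected replicate 2; the cause was not tested. Without any 1 miR-520f array the exact tests of paralogs cannot go below 0.0714. A replicate block called 7, 7, 5 and 6 genes against non-transfected cells, against the negative control, between the controls and against both, with CCND3 added against the negative control (limma adjusted p = 0.0239). Same-numbered samples of different groups deviated together only weakly (r = -0.0262 to 0.205 over genes). For samples of other numbers r ranged from -0.437 to 0.33. The numbers were not taken as pairs. Of 456 recomputed list counts, 414 stayed within 1.5 times.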
